A study of Mus musculus with 9 samples.

Results

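The 10 genes described here carry glucose into the cell and through glycolysis: the glucose transporters Slc2a1 and Slc2a3, the hexokinases Hk1 and Hk2, and Pfkp, Aldoa, Pgk1, Eno1, Pkm and Ldha. They were chosen by symbol from the 39253 genes of the deposited count table, and all 10 were found. RNA was measured in 9 libraries of mouse CD4+ T cells taken on day 9 of experimental autoimmune encephalomyelitis (EAE), in which immunised mice develop inflammation of the brain and spinal cord, a model of multiple sclerosis. Of these, 5 were labelled as knockout for estrogen receptor alpha (ERα KO, below KO) and 4 as wildtype (WT), and all 9 came from mice with EAE. Batch 2 held KO replicates 4 and 5 and WT replicates 3 and 4. Batch 1 held KO replicates 1, 2 and 3 and WT replicates 1 and 2. The labels give neither the cells in which the knockout acts, nor the Cre or strain, the tissue, the age or the sex. The series title is about ERα in dendritic cells, whereas the cells measured were CD4+ T cells. Nothing in the labels says that the samples came from separate animals, so each p-value weighs a difference against a spread between samples that may be technical.

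Glycolysis splits glucose into pyruvate, and lactate dehydrogenase can turn that pyruvate into lactate. Resting T cells use it little, and activated T cells take up more glucose and make more of the transporters and enzymes as they grow and divide. In T cells this switch is known to depend on the kinase mTOR and on the transcription factors Myc and HIF-1α, and Hk2 and Slc2a1 are among the genes used to follow it. Hk1 is the constitutive hexokinase of most tissues, whereas Hk2 is the inducible one.

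In batch 2, Hk2 averaged 4.32 ± 0.54 CPM (counts per 1000000 counts of the library) in KO and 10.2 ± 2.49 CPM in WT cells (SD, n = 2 each), the largest fold difference by genotype among the 10 genes. Its call depended on the tool, since it did not pass the adjusted threshold of 0.05 in edgeR and did in DESeq2. In batch 1, Hk2 averaged 11.3 ± 5.11 CPM in KO (SD, n = 3) and 11.0 ± 2.60 CPM in WT cells (SD, n = 2). The other 9 genes had edgeR log2 fold changes between -0.40 and 0.05 by genotype in batch 2, and none passed the test. Between batches, 7 of the 10 genes were higher in batch 2 and passed, where 16.8% of all genes tested did so, and Slc2a1, Slc2a3 and Hk2 did not pass. All 6 listed markers of CD4 T cells were also higher in batch 2 and passed.

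The libraries set the limits of these values. Library totals lay between 45013017 and 69844721 counts in batch 2, and in batch 1 between 4926347 and 11296593. Esr1, the gene of ERα, had 9 and 14 counts in KO and 101 and 76 counts in WT libraries of batch 2. Batch 1 gave 72, 55 and 66 counts in KO and 55 and 80 counts in WT libraries, so there it does not check the genotype labels. In batch 1 the 1514 sensory receptor genes, which T cells should not express, took 0.0577% to 0.256% of counts, against 0.00258% to 0.00370% in batch 2. Xist, a transcript of the inactive X chromosome, was at 30.4 CPM in KO replicate 3 and at most 0.289 CPM in batch 2, against 1745 to 2680 CPM in the other 4 libraries of batch 1. Ddx3y, a gene of the Y chromosome, was at 55.4 CPM in KO replicate 3 and at 93.6 to 107 CPM in batch 2, against 0 counts in those 4 libraries. The batch 1 comparison by genotype thus includes 1 KO library that differs from the other 4 libraries in both transcripts. The 6 CD4 T cell markers, Cd3e and Cd4 among them, were detected in all 9 libraries, at a summed 2762 to 3974 CPM. CPM values are estimated counts divided by the library total, and replicates are listed in the order of their numbers.

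Promoter windows of 9 of the 10 genes were read from RefSeq (GRCm38.p6), from 250 bases before to 50 after an annotated start. Slc2a3 had no window. Shown are the windows of both hexokinases, whose balance is described below, and of Ldha, the member whose window held the E-box CACGTG. The capitals mark the hypoxia element core, ACGTG or GCGTG on either strand, the letters bound by the HIF family. The annotated starts need not be those used in T cells. The Hk2 window is chr6:82774405-82774704 on the minus strand, the Hk1 window is the second of its pair, chr10:62340372-62340671 on the minus strand, and the Ldha window is the first of its pair, chr7:46845554-46845853 on the plus strand.
Hk2: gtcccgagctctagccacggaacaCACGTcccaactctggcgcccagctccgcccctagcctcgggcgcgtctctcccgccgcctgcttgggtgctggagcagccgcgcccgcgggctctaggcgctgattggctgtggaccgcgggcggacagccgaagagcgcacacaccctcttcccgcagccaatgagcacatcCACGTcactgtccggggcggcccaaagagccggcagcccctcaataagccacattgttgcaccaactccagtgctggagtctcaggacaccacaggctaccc
Hk1: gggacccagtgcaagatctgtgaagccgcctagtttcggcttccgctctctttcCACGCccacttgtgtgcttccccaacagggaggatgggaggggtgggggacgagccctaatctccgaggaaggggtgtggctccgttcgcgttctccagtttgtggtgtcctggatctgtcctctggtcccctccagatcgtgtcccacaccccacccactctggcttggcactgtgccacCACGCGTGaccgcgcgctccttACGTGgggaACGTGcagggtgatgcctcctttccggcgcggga
Ldha: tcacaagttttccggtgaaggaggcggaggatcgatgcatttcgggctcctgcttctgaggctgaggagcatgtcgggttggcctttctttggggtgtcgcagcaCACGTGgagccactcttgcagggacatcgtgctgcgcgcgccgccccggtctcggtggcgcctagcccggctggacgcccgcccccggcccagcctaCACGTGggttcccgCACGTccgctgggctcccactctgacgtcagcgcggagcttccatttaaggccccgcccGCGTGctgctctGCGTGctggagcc
The core was found in 13 of the 16 member windows (81.3%) and in at least 1 window of each of the 9 genes. Among all 32851 windows of the table, 43.8% held it, and so did 46.7% of the 27025 genes in at least 1 window. Windows of 1 gene can overlap, as the second and the third of Aldoa and of Eno1 do, so that 1 core is counted in both. The member windows also had a mean GC content of 63.0 ± 5.6% (SD, n = 16), against 53.8 ± 11.3% for all windows, and the counts were not matched for it. The E-box CACGTG, which contains one form of the core on each strand and is bound by Myc, was in 1 of the 16 windows, that of Ldha shown above, where it stands at 2 places, and in 7.15% of all windows. The estrogen receptor half-site GGTCA, in either orientation, was in 10 of the 16 windows (62.5%) and in 40.5% of all windows. The full palindrome GGTCANNNTGACC, which contains a half-site in each orientation, was in 0 of the 16 and in 0.0700% of all windows. A match describes the letters of a window and is not a measured binding site.

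Levels were compared between genes only per length, as CPM per kilobase of the longest coding transcript (GENCODE M21). Over the 9 libraries, 4 genes stood highest. Eno1, the enolase, had 242 ± 52 CPM per kilobase (SD, n = 9), Pkm, the pyruvate kinase, 200 ± 37, Ldha, the lactate dehydrogenase subunit, 170 ± 46, and Aldoa, the aldolase, 147 ± 27. A middle group held Hk1 at 41.3 ± 6.4, Pfkp, the platelet-type phosphofructokinase, at 41.1 ± 6.2 and Pgk1, the phosphoglycerate kinase, at 38.0 ± 8.3 CPM per kilobase. The transporters Slc2a3 and Slc2a1 followed at 12.1 ± 2.7 and 10.3 ± 0.98, and Hk2 was lowest at 1.71 ± 0.74 CPM per kilobase. Neighbours within each of these groups differed by less than the larger of their SDs. Between the groups the ranges over libraries did not overlap, since the lowest Ldha library had 102 and the highest Pfkp library 53.2, the lowest Pgk1 library had 25.2 and the highest Slc2a3 library 15.4, and the lowest Slc2a3 library had 7.23 and the highest Hk2 library 3.11 CPM per kilobase.

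**Figure D1:**
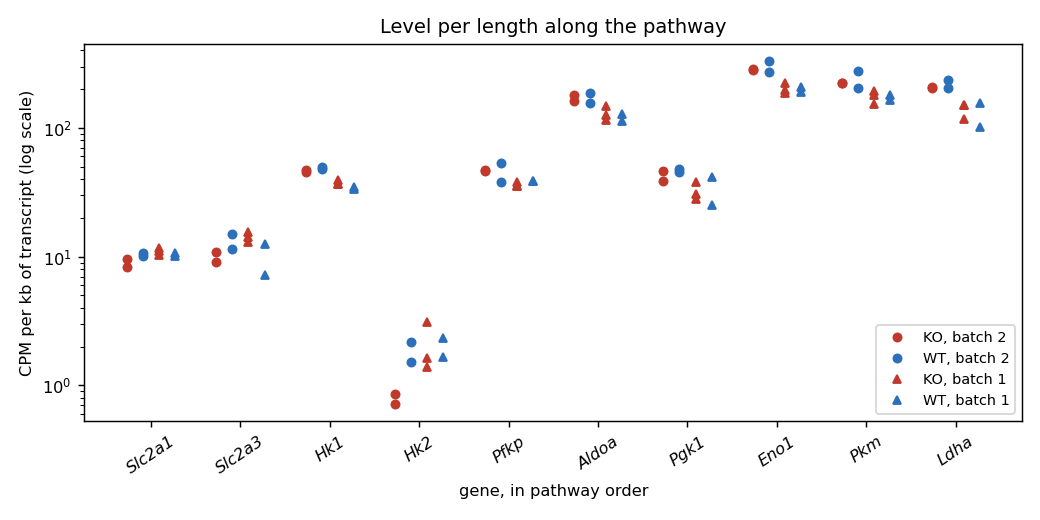
Level of each gene in CPM per kilobase of transcript (log axis) in the order of the pathway, with circles for batch 2, triangles for batch 1, red for KO and blue for WT libraries; each point is 1 library. Hk2 lies below the other 9 genes, from 0.716 to 3.11 CPM per kilobase, and its 2 KO libraries of batch 2 are its lowest points.

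Slc2a1 encodes GLUT1, the transporter that activated T cells bring to their surface. Slc2a1 had 26.9 and 31.3 CPM in KO libraries of batch 2, against 32.9 and 35.0 CPM in WT libraries. Both KO libraries were below both WT libraries, and the KO libraries differed from each other by more than the nearest KO and WT libraries did. At -0.22 ± 0.14 (SE), its log2 fold change failed the test (edgeR adjusted p = 0.745). Slc2a1 had 33.5, 36.2 and 38.1 CPM in KO libraries of batch 1, against 33.2 and 34.9 CPM in WT libraries. Those groups overlapped, and the log2 fold change was -0.07 ± 0.35. Among the 10 genes Slc2a1 had the steadiest level per length over all libraries relative to its mean.

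Slc2a3 encodes GLUT3, a transporter with high affinity for glucose. Slc2a3 had 36.0 and 43.2 CPM in KO libraries of batch 2, against 45.8 and 59.2 CPM in WT libraries. The KO libraries were both below the WT libraries, with a log2 fold change of -0.40 ± 0.16 (95% interval -0.80 to 0.01) that did not pass the test (edgeR adjusted p = 0.641). Slc2a3 had 56.0, 61.1 and 51.9 CPM in KO libraries of batch 1, against 49.7 and 28.6 CPM in WT libraries. Here the KO libraries were all above the WT libraries, and WT replicate 2 was far below the rest. The log2 fold change of 0.34 ± 0.38 in batch 1 was -0.14 without WT replicate 2 and 1.01 without WT replicate 1. In a joint fit of all 9 libraries, with its own filter and TMM scaling, the fold change in batch 2 less that in batch 1 was -0.88 ± 0.35 on the log2 scale, and this interaction did not pass the test (edgeR adjusted p = 0.591). The median of this difference over all genes of the joint fit was -0.19, so it need not equal the gap between the fits of each batch. Without WT replicate 2 it was -0.29.

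The transporters were also compared within each library, where library scaling cancels. Slc2a3 made up 57.2% and 58.0% of the summed Slc2a1 and Slc2a3 counts in KO libraries of batch 2, against 58.2% and 62.9% in WT libraries. In batch 1 the shares were 62.6%, 62.8% and 57.7% in KO libraries, against 59.9% and 45.0% in WT libraries. The share of 45.0% in WT replicate 2 (95% Wilson interval 39.6% to 50.6%) stood below all others, which ran from 57.2% to 62.9%.

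Hk1 encodes the constitutive hexokinase, which makes glucose 6-phosphate. Hk1 had 201 and 195 CPM in KO libraries of batch 2, against 213 and 207 CPM in WT libraries. Both KO libraries were lower, but on TMM-scaled values, edgeR's correction for library composition, the groups overlapped. Its log2 fold change of -0.08 ± 0.10 had a 95% interval of -0.33 to 0.17 (edgeR adjusted p = 0.882). Hk1 had 169, 156 and 156 CPM in KO libraries of batch 1, against 144 and 148 CPM in WT libraries. The KO libraries were all higher in CPM, yet the TMM-scaled groups overlapped and the log2 fold change was -0.01 ± 0.37.

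Hk2 encodes the inducible hexokinase. Hk2 had 3.95 and 4.70 CPM in KO libraries of batch 2, from 248 and 257 counts, against 8.40 and 11.9 CPM in WT libraries, from 587 and 537 counts. The groups did not overlap, and both KO libraries were lower than any other of the 9. The log2 fold change of -1.22 ± 0.28 (SE) is a KO level of 0.429-fold, with a 95% interval of 0.263 to 0.700. Its unadjusted p of 0.00617 had rank 153 among 15910 genes and failed adjustment (edgeR adjusted p = 0.618). DESeq2 gave the same log2 fold change of -1.22 with an adjusted p of 0.0213, and over the 10 alternatives the adjusted p ran from 0.0213 to 1.00. The log2 fold change stayed between -1.42 and -1.0 in all 10, and it was -1.42 (edgeR adjusted p = 0.0701) without WT replicate 3, the library with the highest erythroid markers.

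In batch 1, Hk2 had 7.72, 9.07 and 17.2 CPM in KO libraries, from 58, 79 and 87 counts, against 9.12 and 12.8 CPM in WT libraries, from 103 and 63 counts. The groups overlapped, with KO replicate 3 the highest and KO replicate 1 the lowest of the 5. The log2 fold change was -0.14 ± 0.43, and it was -0.40 without KO replicate 3 and 0.04 without KO replicate 1. KO replicate 3 also had the largest share of sensory receptor counts, 0.256%, and the 95th percentile of the level of these genes was 4.14 CPM there, against 0.974 to 2.64 CPM in the other 4 libraries of batch 1. In Xist and Ddx3y, too, KO replicate 3 differed from those 4 libraries, as given above. The part of this background, or of what sets Xist and Ddx3y apart, in the Hk2 level was not tested. In the joint fit the difference between the batches' fold changes was -1.22 ± 0.55 on the log2 scale and did not pass the test (edgeR adjusted p = 0.591). Fitted over all 9 libraries, Hk2 stood at -0.60 ± 0.33 on the log2 scale (edgeR adjusted p = 1.00), and at -0.88 to -0.40 when 1 library was left out. It was -0.09 ± 0.11 for Slc2a1, 0.06 ± 0.22 for Slc2a3 and between -0.11 and 0.02 for the other 7 genes.

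Hk2 as a share of the summed Hk1 and Hk2 counts showed the same order without library scaling. The shares in batch 2 were 1.92% (95% Wilson interval 1.70% to 2.17%) and 2.36% (2.09% to 2.66%) in KO libraries. They were 3.80% (3.51% to 4.11%) and 5.45% (5.02% to 5.92%) in WT libraries. The intervals, which cover counting error only, did not overlap between the genotypes. Those of the 2 WT libraries did not overlap each other either, so such a gap also occurred within a genotype. The mean share was 2.14 ± 0.31% in KO and 4.63 ± 1.17% in WT cells (SD, n = 2 each). With 2 samples against 2 a two-sided exact permutation test cannot give a p under 0.333, so no test of the share was made. The shares in batch 1 were 4.37%, 5.49% and 9.92% in KO libraries, against 5.94% and 7.93% in WT libraries, and the groups overlapped.

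**Figure D2:**
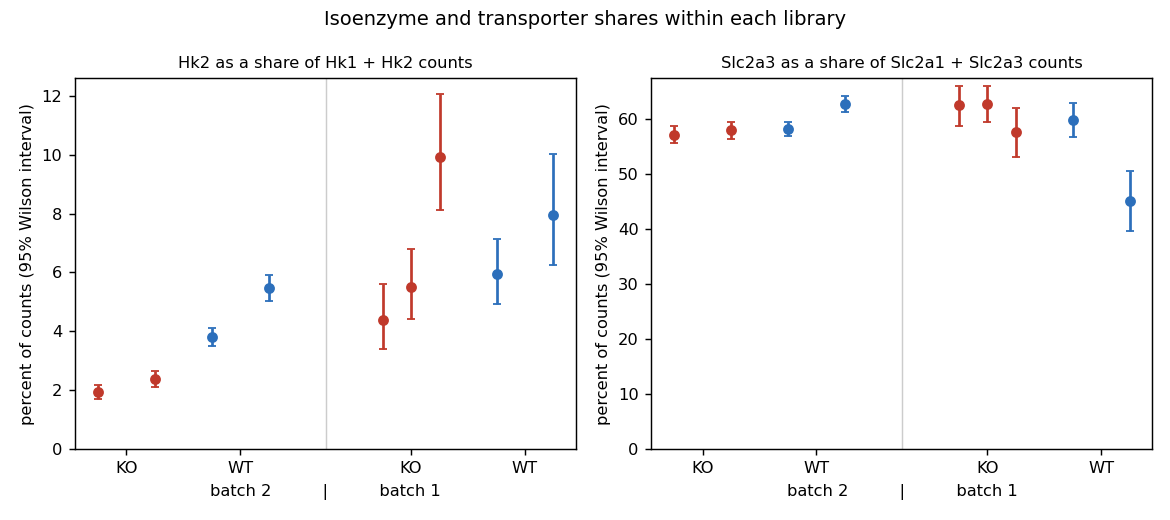
Hk2 as a percent of Hk1 plus Hk2 counts (left) and Slc2a3 as a percent of Slc2a1 plus Slc2a3 counts (right), 1 point per library with its 95% Wilson interval, KO in red and WT in blue. In batch 2 the KO libraries had Hk2 shares of 1.92% and 2.36%, below the 3.80% and 5.45% of the WT libraries, while the batch 1 groups overlapped.

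Pfkp encodes a subunit of phosphofructokinase, which catalyses the committed step of glycolysis. Pfkp had 196 and 192 CPM in KO libraries of batch 2, which lay between the 156 and 220 CPM of the WT libraries. It was the single member with a positive log2 fold change there, 0.05 ± 0.15, which was -0.14 without WT replicate 3. Pfkp had 146, 158 and 146 CPM in KO libraries of batch 1, against 159 and 161 CPM in WT libraries. The KO libraries were all lower in CPM, with a log2 fold change of -0.23 ± 0.36, and overlapped with WT after TMM scaling.

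Aldoa splits fructose bisphosphate into triose phosphates. Aldoa had 252 and 279 CPM in KO libraries of batch 2, between the 243 and 291 CPM of the WT libraries. Aldoa had 194, 228 and 180 CPM in KO libraries of batch 1, against 200 and 177 CPM in WT libraries. The groups overlapped in both batches, and the log2 fold changes were -0.00 ± 0.11 in batch 2 and -0.05 ± 0.37 in batch 1.

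Pgk1 makes ATP from bisphosphoglycerate. Pgk1 had 71.0 and 84.9 CPM in KO libraries of batch 2, against 87.5 and 82.9 CPM in WT libraries. Pgk1 had 55.9, 69.9 and 51.1 CPM in KO libraries of batch 1, against 75.7 and 46.1 CPM in WT libraries. The groups overlapped in both batches, at log2 fold changes of -0.13 ± 0.14 in batch 2 and -0.21 ± 0.37 in batch 1.

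Eno1, the enolase, makes phosphoenolpyruvate. Eno1 had 574 and 578 CPM in KO libraries of batch 2, between the 550 and 670 CPM of the WT libraries. Eno1 had 400, 457 and 376 CPM in KO libraries of batch 1, against 422 and 386 CPM in WT libraries. The log2 fold changes were -0.07 ± 0.11 in batch 2 and -0.11 ± 0.37 in batch 1, with overlapping groups in both.

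Pkm makes pyruvate. Pkm had 542 and 548 CPM in KO libraries of batch 2, between the 497 and 672 CPM of the WT libraries. Pkm had 373, 441 and 468 CPM in KO libraries of batch 1, against 435 and 404 CPM in WT libraries. The log2 fold changes were -0.09 ± 0.14 in batch 2 and -0.13 ± 0.36 in batch 1, and the table does not separate the M1 and M2 splice forms.

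Ldha encodes the lactate dehydrogenase subunit that favours lactate. Ldha had 372 and 376 CPM in KO libraries of batch 2, against 369 and 431 CPM in WT libraries. Ldha had 273, 276 and 212 CPM in KO libraries of batch 1, against 282 and 186 CPM in WT libraries. The groups overlapped, and the log2 fold change in batch 2 was -0.09 ± 0.10, with a 95% interval of -0.33 to 0.16. On TMM-scaled values the KO libraries of batch 2 were both below the WT libraries.

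**Figure D3:**
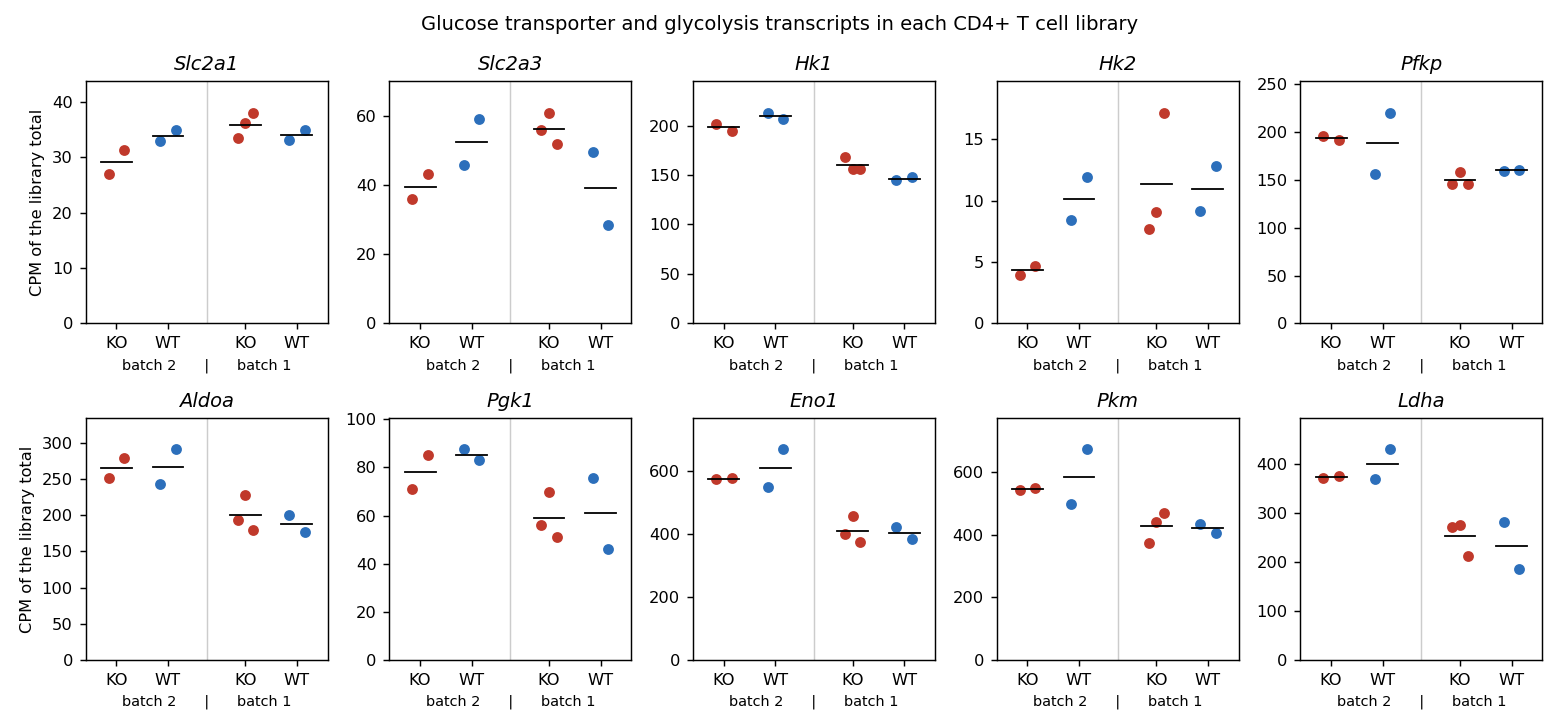
CPM of each of the 10 genes in every library, KO in red and WT in blue, batch 2 left and batch 1 right in each panel; points are libraries and bars are means. Hk2 in batch 2 shows the KO points at 3.95 and 4.70 CPM below the WT points at 8.40 and 11.9 CPM, while most other genes overlap by genotype and stand higher in batch 2.

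Counted over the pathway, 4 of the 10 genes (Slc2a1, Slc2a3, Hk1 and Hk2) had every KO library below every WT library in batch 2, and 0 had every KO library above. Over all 15910 genes tested there, 20.5% had the first pattern and 19.6% the second. After TMM scaling 4 of 10 had the first pattern, with Ldha in place of Hk1. In both batches the shares over all genes were computed in CPM only and not after TMM scaling. In batch 1, Slc2a3 and Hk1 had every KO library above every WT library, and Pfkp every KO library below. Among the 24600 genes tested in batch 1, 10.9% had the first pattern and 5.19% the second, and after TMM scaling all 10 members overlapped. In batch 1 the TMM factors ran from 0.837 to 1.27, and 7 members, Slc2a1, Hk1, Hk2, Aldoa, Eno1, Pkm and Ldha, were higher in KO in mean CPM and negative in the fitted log2 fold change.

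The edgeR test at an adjusted p of 0.05 called 0 of the 10 genes by genotype in batch 2, in batch 1 and over both batches. In batch 2 it called 0 of all 15910 genes (0%), with 1237 genes (7.77%) at an unadjusted p under 0.05, of the 10 members Hk2 alone. DESeq2 called 329 of the 15601 genes with an adjusted p (2.11%), of the members Hk2 alone. In batch 1 edgeR called 31 of 24600 genes (0.126%), and 1.97% of genes but 0 members had an unadjusted p under 0.05. Over both batches it called 1 of 22197 genes (0.00451%), and 2.36% of genes but 0 members had an unadjusted p under 0.05. The interaction called 1 gene (0.00451%), not a member, while 8.36% of genes and 2 members, Slc2a3 and Hk2, had an unadjusted p under 0.05. DESeq2 called 0 members in batch 1, over both batches and in the interaction.

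In size, the median log2 fold change of the 10 genes was -0.09 in batch 2, with 9 negative, against -0.02 and 52.2% negative over all genes tested, and it was -0.17 without WT replicate 3. In batch 1 the median was -0.09, with 9 negative, against 0.04 and 46.2% negative over all genes. That count was 5 with upper-quartile scaling and with genes under a mean of 5 CPM left out, and 3 with the replicate number as a block. KO replicate 3 stands alone in that block, so the genotype estimate there rests on replicates 1 and 2. The batch 1 median moved with single libraries, since it was -0.33 without WT replicate 2, 0.13 without WT replicate 1 and 0.02 without KO replicate 3. With 1 library left out at a time, 9 genes changed sign in batch 1, all but Pfkp, and 5 in batch 2, Pfkp, Aldoa, Pgk1, Eno1 and Pkm. The 95% intervals in batch 2 of the 9 genes other than Hk2 lay between -0.80 and 0.44, which is 0.574-fold to 1.36-fold in KO cells. Each interval is for 1 gene and rests on 2 libraries against 2 whose spread may be technical. Differences beyond these ends are therefore not excluded. In batch 1 the intervals of all 10 lay between -1.0 and 1.10 and each included 0, so they leave wide room for a difference in either direction. The smallest difference that the test could call was not computed.

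**Figure D4:**
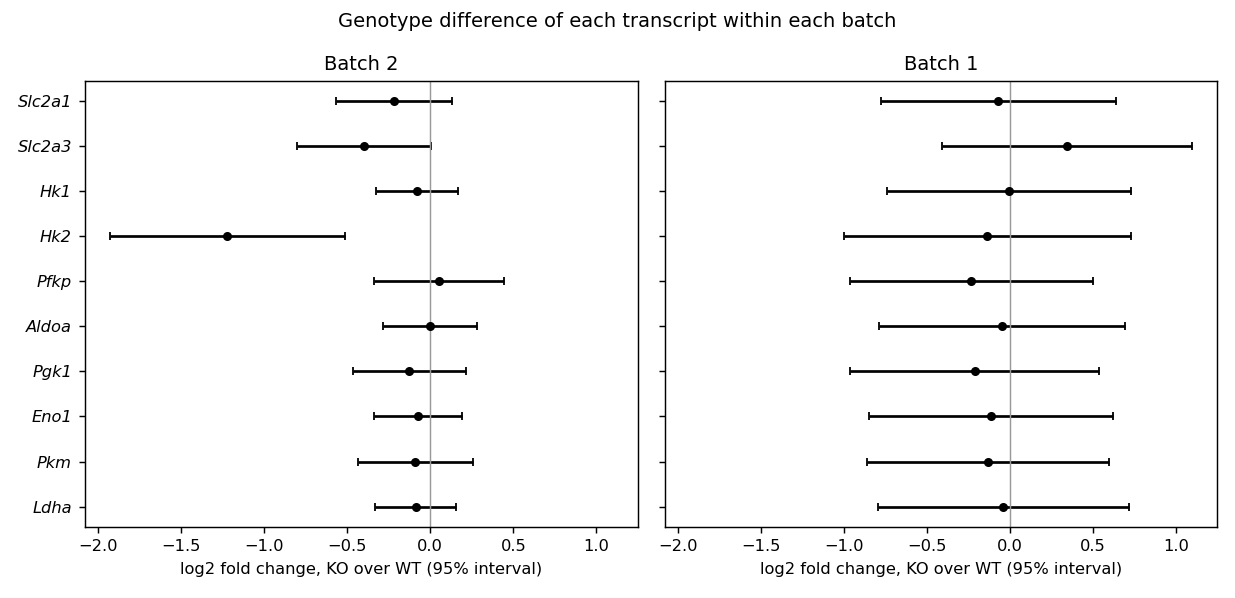
Log2 fold change of each gene, KO over WT, with its 95% interval from edgeR, in batch 2 (left) and batch 1 (right); the grey line marks no difference. In batch 2 the interval of Hk2, -1.93 to -0.51, lies left of 0 and the other 9 include 0, while in batch 1 all 10 intervals include 0.

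The 10 genes together took 0.228% and 0.233% of counts in KO libraries of batch 2, against 0.220% and 0.268% in WT libraries. In batch 1 they took 0.171%, 0.189% and 0.170% in KO libraries, against 0.181% and 0.158% in WT libraries. All 4 libraries of batch 2 were above all 5 of batch 1, and the genotypes overlapped in each batch. In bulk RNA, fewer cells with a transcript and less of it per cell cannot be told apart.

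Between batches, with genotype in the model, 7 of the 10 genes were higher in batch 2 and passed the test, and 0 were lower and passed. Over all genes, 64.1% were called in either direction and 16.8% as higher in batch 2. The log2 fold changes, batch 2 over batch 1, were 0.87 ± 0.15 for Ldha, 0.75 ± 0.11 for Eno1, 0.67 ± 0.12 for Aldoa, 0.65 ± 0.16 for Pgk1, 0.63 ± 0.12 for Pkm, 0.62 ± 0.10 for Hk1 and 0.53 ± 0.11 for Pfkp. For these 7 the edgeR adjusted p ran from 0.000241 to 0.00498. The transporters did not pass, at 0.05 ± 0.11 for Slc2a1 and 0.13 ± 0.22 for Slc2a3, nor did Hk2 at -0.56 ± 0.33. In CPM, every library of batch 2 was above every library of batch 1 for 5 genes, Hk1, Aldoa, Eno1, Pkm and Ldha, a pattern found in 5.01% of all genes. The shift was not particular to these genes. Called higher in batch 2 were 6 of 6 CD4 T cell markers, 5 of 6 T cell activation genes and 7 of 12 proliferation genes. Of 16 other glycolysis enzymes tested, 4 were called higher and 4 lower, and of 7 neutrophil markers 5 were called lower. Among all 22197 genes tested between batches, 10497 were called lower.

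The median of all genes in the batch comparison was -0.76 with TMM, -0.84 when scaled by DESeq2 and -0.97 by the upper quartile. Relative to these medians all 10 genes were higher in batch 2 under each scaling, but with genes under 5 CPM left out the median of all genes was 0.02, and Slc2a1, Slc2a3 and Hk2 were below it. Upper-quartile scaling called 1353 genes higher and 11141 lower, against 3724 higher and 10497 lower with TMM, and the 7 genes named above were called under both. Depth, the sensory receptor counts and the CD4 T cell markers also differed between the batches, and these cannot be told apart from the batch. Xist and Ddx3y differed too, but KO replicate 3, at 30.4 and 55.4 CPM, departed from the rest of batch 1 in both. KO replicate 3 was below every library of batch 2 in Hk1, Aldoa, Eno1, Pkm and Ldha. The part of what sets Xist and Ddx3y apart in the batch shift was not tested.

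The 20 other glycolysis enzymes gave 0 calls by genotype. The median log2 fold change was 0.04 in batch 2, with 6 of the 13 tested negative, and 0.19 in batch 1, with 5 of 17 negative. The most abundant were Gapdh, the dehydrogenase between Aldoa and Pgk1, at -0.14 in batch 2 and -0.06 in batch 1, Gpi1, the isomerase after hexokinase, at 0.04 and 0.01, and Adpgk, an ADP-dependent glucokinase, at 0.31 and -0.30. Hk3, a hexokinase of myeloid cells, had 1.48 and 0.805 CPM in KO and 2.43 and 1.09 CPM in WT libraries of batch 2. In batch 1 Hk3 had 10.4, 6.54 and 9.27 CPM in KO and 6.99 and 8.12 CPM in WT libraries, and the 7 neutrophil markers summed there to 265 to 959 CPM, against 5.42 to 163 CPM in batch 2.

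The 12 other carriers of glucose and lactate also gave 0 calls. In batch 2 the median of the 9 tested was -0.74, 7 of them negative, and in batch 1 that of the 12 tested was 0.09, 3 of them negative. Bsg, the chaperone of the lactate carriers, was at -0.62 in batch 2 and 0.06 in batch 1, Slc16a1, a lactate carrier, at -1.10 and 0.08, and Slc2a9, a urate and hexose carrier, at 0.41 and -0.34. Bsg had 128 and 147 CPM in KO libraries of batch 2, against 263 CPM in WT replicate 3 and 157 CPM in WT replicate 4. Slc16a1 had 20.8 and 21.9 CPM in KO libraries of batch 2, against 68.8 CPM in WT replicate 3 and 21.7 CPM in WT replicate 4, so its value rested on WT replicate 3. The 6 erythroid markers summed to 1820 CPM in WT replicate 3 and to 4.14 to 141 CPM in the other 8 libraries, and red cell precursors also express Bsg and Slc16a1. Their part in these values was not tested.

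The lists around the pathway gave 0 calls by genotype in either batch or over both. Among 5 regulators of fructose bisphosphate the medians were -0.01 in batch 2 and -0.08 in batch 1, with Tigar, its phosphatase, at 0.09 and 0.14, Pfkfb3 at -0.03 and -0.08 and Pfkfb2 at 0.13 and -0.17. Among 8 pentose phosphate genes the medians were -0.09 and -0.06, with Tkt at -0.11 and 0.04, Taldo1 at -0.14 and -0.03 and H6pd at 0.17 and -0.14. Among the genes of pyruvate entry to mitochondria, the median was 0.01 in batch 2, with 6 of 12 negative, and -0.40 in batch 1, with 11 of 13 negative. Pdk1, the kinase that closes pyruvate dehydrogenase, averaged 175 ± 26.9 CPM in KO and 141 ± 28.9 CPM in WT cells of batch 2. In batch 1 it averaged 104 ± 12.5 CPM in KO and 214 ± 21.1 CPM in WT cells, with a log2 fold change of -1.21 ± 0.36 that did not pass (edgeR adjusted p = 0.604). Pdha1 was at 0.02 and -0.26, and Pdhb at 0.03 and -0.43.

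The 19 genes of the HIF pathway had medians of -0.02 in batch 2, with 10 negative, and -0.13 in batch 1, with 13 negative. Hif1a was at 0.00 in batch 2 and -0.15 in batch 1, Ddit4, an inhibitor of mTOR signalling, at 0.22 and 0.36, and Bnip3l, a mitophagy receptor, at -0.57 and -0.44. Bnip3l had 136 and 119 CPM in KO libraries of batch 2, against 263 CPM in WT replicate 3 and 112 CPM in WT replicate 4, which was below both KO libraries. The 10 upstream regulators had medians of -0.02 and 0.04, with Txnip, an inhibitor of glucose uptake, at 0.36 and 0.13, Rictor at 0.00 and -0.27 and Myc at 0.20 and -0.15. The median over all genes in batch 2 was also -0.02 at 2 decimals.

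Proliferation and activation genes were read beside Hk2 as dividing T cells are known to make more of it. All 12 proliferation genes were negative in batch 2, with a median of -1.20 and unadjusted p under 0.05 for all 12, and 0 passed adjustment (lowest edgeR adjusted p = 0.618). Over all genes tested there, 52.2% were negative and 7.77% had an unadjusted p under 0.05. In batch 1 the median of the 12 proliferation genes was -0.00, with 6 negative. Their summed level was 809 and 1183 CPM in KO libraries of batch 2, against 3056 and 1705 CPM in WT libraries, with WT replicate 3 the highest. In batch 1 it was 627, 982 and 622 CPM in KO libraries, against 943 and 491 CPM in WT libraries. Mki67, a marker of cycling cells, was at -1.48 in batch 2 and -0.21 in batch 1, Pcna, the replication clamp, at -0.41 and -0.19, and Top2a, a topoisomerase, at -0.95 and -0.04. In batch 2 both KO libraries were below both WT libraries in this sum, as they were in Hk2. Of all single genes tested there, 20.5% had this pattern in CPM. Between the WT libraries of batch 2 the order differed, with the sum higher in replicate 3 and Hk2 higher in replicate 4. In batch 1 the libraries highest in Hk2, KO replicate 3 and WT replicate 2, had the lowest sums.

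The 6 activation genes summed to 718 and 740 CPM in KO libraries of batch 2, against 905 and 1004 CPM in WT libraries, with a median log2 fold change of -0.03. Cd44 was at -0.57 in batch 2 and -0.05 in batch 1, Icos at -0.10 and -0.44 and Il2ra at 0.04 and -0.36. The 7 genes of naive T cells had a median of 0.36 in batch 2, with all 7 positive, and of -0.19 in batch 1, with 6 negative. Tcf7 was at 0.29 in batch 2 and -0.57 in batch 1, and Lef1 at 0.49 and -0.38. The 7 neutrophil markers summed to 5.42 and 7.51 CPM in KO libraries of batch 2, against 163 and 18.0 CPM in WT libraries. Of these 7, each KO library and WT replicate 4 had 1 marker at 0 counts. The part of proliferating cells, red cell precursors or neutrophils in the Hk2 difference was not tested. WT replicate 4 was also above both KO libraries in the proliferation and neutrophil sums. In the erythroid sum it was below both, at 96.9 CPM against 141 and 130 CPM.

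**Figure D5:**
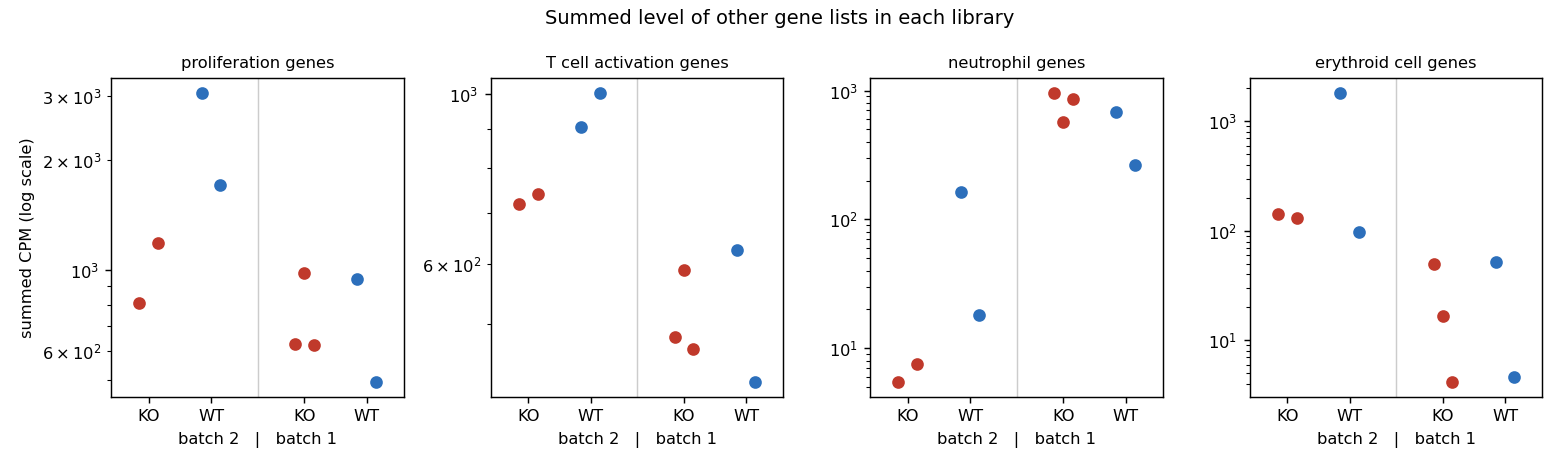
Summed CPM (log axis) of 12 proliferation, 6 T cell activation, 7 neutrophil and 6 erythroid genes, 1 point per library, KO in red and WT in blue, batch 2 left and batch 1 right in each panel. WT replicate 3 of batch 2 stands at 3056 CPM for proliferation and 1820 CPM for erythroid genes, and the neutrophil sums of batch 1, 265 to 959 CPM, are above all of batch 2.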

How the data were processed

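RNA sequencing of 9 CD4+ T cell samples was analysed, with single-end reads of 100 bases from an Ovation library kit per the labels' protocols. The submitters' processing notes list Salmon 1.2.0, R 4.0.3 and the mouse build GRCm39 and do not say what each was used for. Annotation release, strand setting and filters: not given in the sources used here. A table deposited by the authors is named as gene counts, with a gene identifier, symbol and product name beside 9 sample columns per the file headers, and its fractional values are treated here like expected counts (estimated counts). Of the values above 0, 100% differed from a whole number by more than 1e-06 and the totals differed between libraries, so a scaling by transcript length by the authors cannot be told apart from plain estimates. Intervals read the values as numbers of reads and cover counting error only.

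From the table, counts were rounded to whole numbers, and CPM was computed as counts per 1000000 counts of the library. Genotype was tested within each batch, over both batches with batch as a term, and as an interaction (batch 2 minus batch 1), and batch was tested with genotype as a term. The test was edgeR 4.0.16 in R 4.3.3 (quasi-likelihood, robust, TMM scaling, filterByExpr by genotype with a minimum count of 10 and a minimum total of 15), with Benjamini-Hochberg adjustment over all genes tested and a threshold of 0.05. All 10 members passed the filter. Alternatives were DESeq2 1.42.0 (Wald test), its size factors or upper-quartile scaling in edgeR, no filter, a filter at a mean of 5 CPM, near-identical copies added to their member, no batch term, a replicate block, and leaving out each sample. The code was tested on simulated data with known changes. Shares have Wilson intervals (scipy 1.17.1).

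No pair of libraries of 1 group and batch agreed within sampling noise (a chi-square of 4.80 to 153 for each degree of freedom). Eno1b, Aldoart1 and Aldoart2, near-identical copies of Eno1 and Aldoa, had at most 4.54 CPM, and Hk1os, antisense to Hk1, at most 3.45 CPM. Reads that match both a copy and its gene cannot be told apart. Whether reads of Hk1os were kept apart from those of Hk1 depends on the strand setting, which was not given. Promoter windows use GRCm38.p6 and the counts another build, so only the windows have coordinates. Besides the members, Esr1 and the 3 genes of highest mean CPM in each list are named, and 0 other list genes passed the threshold by genotype. Other named genes, such as Hk3, Xist and the copies, were chosen after their values were seen. The members and lists were chosen with earlier results of these data known.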

Additional observations from a re-analysis of the deposited data

Results flagged for a closer look

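Each of the 10 genes and 2 shares was examined for a library far from the others of its genotype, pooled over batches, in 24 groups of libraries, of which chance would mark 1.2. Of these, 1 was marked: Pfkp at 220 CPM in WT replicate 4, against 156 to 161 CPM in the other 3 WT libraries. WT replicate 4 was from batch 2, where the KO libraries had 196 and 192 CPM.

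For Slc2a3 and Hk1, every KO library was below every WT library in batch 2 and above every WT library in batch 1 in CPM. Over all genes tested, 20.5% had the first pattern in batch 2 and 10.9% the second in batch 1. The share of genes with both was not computed. In the joint fit of all 9 libraries, where the median over all genes was -0.19, the log2 fold change in batch 2 less that in batch 1 was -0.88 for Slc2a3 and -0.18 for Hk1. The fits of each batch alone gave -0.40 in batch 2 and 0.34 in batch 1 for Slc2a3, and -0.08 and -0.01 for Hk1. Neither difference passed the test of the interaction, at edgeR adjusted p of 0.591 for Slc2a3 and 0.963 for Hk1. After TMM scaling the KO and WT libraries of batch 1 overlapped for both genes.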

How the results depend on the processing

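Within the genotype comparisons and the interaction, 0 of the 10 genes were called under every alternative run, except that DESeq2 called 1, Hk2, in batch 2. All 7 genes called between batches were called under every alternative but the filter at 5 CPM, where Pgk1 was at 0.45 (edgeR adjusted p = 0.0526). The cause of the changes below was not tested.

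Counts of all genes called moved most. In batch 2, DESeq2 called 329 and the fit with no filter 34 genes, against 0, and leaving out 1 library gave 0 to 879. In batch 1, 31 genes became 56 with DESeq2 size factors (31 higher and 25 lower, against 18 and 13), 6 with upper-quartile scaling (1 higher and 5 lower), 68 with no filter, 3 with the filter at 5 CPM, and 33 to 118 with 1 library left out. Over both batches, 1 gene became 16 with DESeq2, 2 with no filter, 0 with no batch term and 0 to 3 with 1 library left out. The interaction's 1 gene became 165 with DESeq2, 2 with no filter and 1 to 238 with 1 library left out. Between batches, 14221 became 25837 with no filter and 3191 with the filter at 5 CPM.

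The members' median log2 fold change in batch 1 was -0.223 with DESeq2 size factors and with DESeq2, -0.015 with upper-quartile scaling, 0.0099 with the filter at 5 CPM, and -0.33 to 0.13 with 1 library left out. Over both batches it ran from -0.24 to -0.00082 with 1 library left out. In the interaction it was 0.0054 with no filter and ran from -0.32 to 0.25 with 1 library left out. Between batches it was 0.42 with upper-quartile scaling, 0.91 with no filter, 0.42 with the filter at 5 CPM, and 0.60 to 0.81 with 1 library left out.

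Signs of small fold changes also turned. In batch 1, upper-quartile scaling gave 0.0066 for Slc2a1, 0.061 for Hk1, 0.025 for Aldoa and 0.051 for Ldha, and the filter at 5 CPM gave 0.029, 0.084, 0.045 and 0.067 for the same 4. In batch 2, upper-quartile scaling gave 0.034 for Aldoa. Slc2a3 over both batches was -0.049 with no filter. Between batches, Slc2a1 was -0.020 with DESeq2 size factors, -0.019 with DESeq2, -0.15 with upper-quartile scaling and -0.15 with the filter at 5 CPM, and Slc2a3 was -0.068 and -0.073 under the last pair.

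With 1 library left out, values in batch 2 ran from -0.14 to 0.27 for Pfkp, -0.092 to 0.085 for Aldoa, -0.26 to 0.0062 for Pgk1, -0.18 to 0.026 for Eno1 and -0.26 to 0.092 for Pkm. In batch 1 they ran from -0.23 to 0.057 for Slc2a1, -0.14 to 1.01 for Slc2a3, -0.18 to 0.14 for Hk1, -0.40 to 0.038 for Hk2, -0.31 to 0.22 for Aldoa, -0.67 to 0.40 for Pgk1, -0.36 to 0.13 for Eno1, -0.37 to 0.093 for Pkm and -0.46 to 0.50 for Ldha. Over both batches Slc2a3 ran from -0.31 to 0.20, and between batches Slc2a1 from -0.00035 to 0.24. Where 1 library was left in a group, it was assumed to vary like the others. An alternative chosen after seeing the data, without both WT replicate 3 and KO replicate 3, gave -0.87 for Hk2 over both batches and 0 members called.

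The titles number replicates in each genotype and do not say that equal numbers are pairs. Same-numbered libraries had correlations of their deviations from the group means of 0.43, -0.46, -0.14 and -0.16 for numbers 1 to 4. Each batch held 2 WT libraries, whose deviations from their mean are mirror images. These correlations therefore cannot decide whether the numbers pair the samples. In batch 1 KO replicate 3 has no WT library of its number, so with the block the genotype estimate rests on numbers 1 and 2. With the replicate block, batch 1 gave 58 called genes, a member median of 0.069, and 0.021 for Slc2a1, 0.14 for Hk1, 0.15 for Aldoa, 0.065 for Pgk1, 0.073 for Eno1 and 0.25 for Ldha. Over both batches the block gave 1 called gene, as without it, and -0.80 for Hk2. There number 3 joins a KO library of batch 1 to a WT library of batch 2. In batch 2 the genotypes share number 4 alone, so no block could be fitted.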
